A study of Homo sapiens with 6 samples.

Results

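Cohesin is a ring-shaped protein complex that holds sister chromatids together from DNA replication to anaphase and extrudes chromatin loops during interphase. SMC1A and SMC3 form the arms of the ring, the kleisin RAD21 closes it, and STAG1 or STAG2 docks on RAD21. NIPBL with MAU2 loads the ring and drives loop extrusion, WAPL with PDS5A or PDS5B opens it, and PDS5 proteins also serve its acetylation. STAG2, RAD21, SMC1A and SMC3 are recurrently mutated in acute myeloid leukemia. The 10 genes described here (SMC1A, SMC3, RAD21, STAG1, STAG2, NIPBL, MAU2, WAPL, PDS5A and PDS5B) were chosen by symbol as the ring, its loader and its release factors, out of 21857 genes in the deposited tables. All 10 had a row, and all 10 were among the 13531 genes kept by the filter on low counts.

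RNA was sequenced from MV4;11, a human acute myeloid leukemia line labelled with the genotype FLT3-ITD MLL-AF4. 3 libraries came from cells treated with 10 µg/ml flavokawain A (FKA), a chalcone of the kava plant, for 48 h. The other 3 came from control cells, also labelled 48 h. All libraries come from this 1 line, and the labels put 1 FKA and 1 control library in each of 3 batches. The labels do not say whether the batches were separate cultures, so p-values measure the spread between these libraries, which may be technical. The comparison of FKA with control asks which of these transcripts differ in cells under a treatment that the study's title links to cell cycle arrest.

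Count totals ran from 29971171 to 33183376 in FKA libraries and from 33759185 to 36362421 in control libraries. Summed myeloid marker levels (10 genes, most of the sum from PTPRC, CEBPA and FLT3) ran from 2067 to 2183 CPM in FKA libraries and from 1961 to 2026 CPM in control libraries. Of these 10 genes ITGAM (log2 fold change 1.51) and MEIS1 (0.58) rose, HOXA9 (-0.52) fell and 7 were not called. MEIS1 (edgeR adjusted p = 0.0434) and HOXA9 (edgeR adjusted p = 0.0437) passed narrowly, and the groups of both overlapped. CPM here are a gene's counts relative to its library's total, scaled with TMM factors. The sums of 12 mesenchymal markers were 10.2, 64.9 and 65.2 CPM in FKA replicates 1 to 3 and 53.8, 34.2 and 19.4 CPM in control replicates 1 to 3, and none of the 12 was at 0 in every library. COL6A3, which fell (log2 fold change -1.29, edgeR adjusted p = 0.0053), made up most of the control sums. Without it, a choice made after seeing the data, the sums were 1.21, 54.1 and 50.1 CPM in FKA replicates 1 to 3 and 11.6, 9.16 and 0.892 CPM in control replicates 1 to 3. Sums of 3 of 6 T and NK cell markers were 9.32 to 9.70 CPM in FKA and 21.3 to 24.3 CPM in control libraries. NKG7 made up nearly all of these sums, with CD3D and GNLY near 0. Sums of 3 of 4 B cell markers were 0.155 to 0.575 CPM in FKA and 0.290 to 0.535 CPM in control libraries. Those of 5 epithelial markers were 12.9 to 18.8 CPM in FKA and 19.2 to 21.8 CPM in control libraries. Erythroid markers were not analysed here.

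Transcripts of the ring and of both PDS5 genes fell with FKA, while those of the loader and of WAPL did not pass the test. 7 of the 10 genes were lower at an adjusted p under 0.05 (edgeR quasi-likelihood test, Benjamini-Hochberg adjustment over all 13531 genes), none was higher, and NIPBL, MAU2 and WAPL were not called. Of all tested genes 30.5% were lower, 29.3% higher and 59.8% called in either direction. The median log2 fold change of the 10 genes was -0.57, beside 0.01 over all tested genes. Abundant genes were called lower more often, at 43.5% in the top one of 10 equal bins of genes ordered by FPKM and 32.5% to 35.9% in the next 3 bins, and the 10 genes lie in these 4 bins (3 in the highest, then 4, 2 and 1). In bulk RNA, fewer cycling cells and less RNA per cell cannot be told apart.

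**Figure D1:**
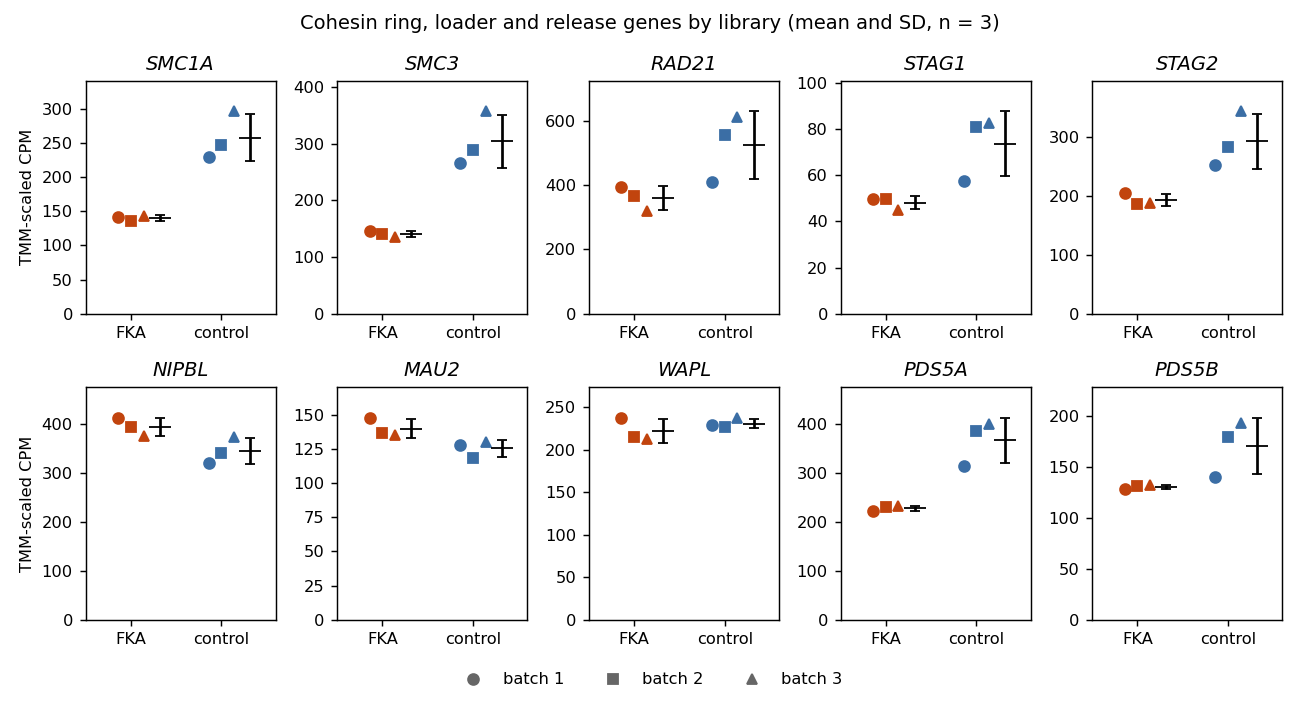
Each panel plots the TMM-scaled CPM (scaled counts) of 1 gene in 3 FKA libraries (orange, left) and 3 control libraries (blue, right), with marker shapes for batches and a bar for mean ± SD. SMC3 lies between 136 and 147 CPM in FKA libraries and between 267 and 357 CPM in control libraries, whereas the WAPL groups overlap.

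The SMC arms of the ring showed the deepest falls among the 10 genes. SMC3, the partner whose head is acetylated when cohesion is established, had 147, 141 and 136 CPM in FKA replicates 1 to 3, against 267, 290 and 357 CPM in control replicates 1 to 3. The highest FKA library lay well below the lowest control library. The log2 fold change was -1.11 (SE 0.118, edgeR adjusted p = 8.16e-05), with a 95% interval from -1.38 to -0.84. SMC1A, the other arm, had 142, 135 and 144 CPM in FKA libraries, against 230, 247 and 297 CPM in control libraries. Its groups were likewise apart, and its log2 fold change was -0.88 (SE 0.109, edgeR adjusted p = 0.000174). SMC3 was the sole member at least 2-fold lower, where 13.7% of all tested genes were. It was less than 2-fold lower under library totals alone (-0.95), in the 3 limma fits (-0.94 to -0.91) and without control replicate 3 (-0.99). Within batches 1, 2 and 3 the log2 difference was -0.86, -1.03 and -1.40 for SMC3, and -0.70, -0.87 and -1.05 for SMC1A.

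RAD21, the kleisin that separase cuts at anaphase, fell unevenly across batches. It had 394, 365 and 321 CPM in FKA libraries, against 409, 555 and 611 CPM in control libraries. Control replicate 1 lay just above the highest FKA library, and the other controls lay far above. The log2 fold change was -0.54 (SE 0.153, edgeR adjusted p = 0.0134). Within batches 1, 2 and 3 it was -0.05, -0.60 and -0.93. The other genes that fell also differed least in batch 1 and most in batch 3. Over batches 1 to 3 STAG1 had -0.21, -0.70 and -0.88, and PDS5B had -0.12, -0.45 and -0.55. The call of RAD21 was lost without control replicate 3 (-0.43, edgeR adjusted p = 0.0539) or FKA replicate 3 (-0.47, edgeR adjusted p = 0.0526). It was also lost under library totals alone (-0.39, edgeR adjusted p = 0.0608).

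Both of the alternative STAG subunits fell. STAG2, the X-linked form, had 205, 187 and 189 CPM in FKA libraries, against 252, 283 and 344 CPM in control libraries. Its groups did not overlap, and its log2 fold change was -0.60 (SE 0.121, edgeR adjusted p = 0.00253). STAG1, its autosomal counterpart, had 49.6, 49.7 and 44.9 CPM in FKA libraries, against 57.5, 81.0 and 82.5 CPM in control libraries. Control replicate 1 was again the lowest control, and the log2 fold change was -0.62 (SE 0.14, edgeR adjusted p = 0.00460).

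Of the loader genes, NIPBL stood slightly higher in FKA libraries without passing the test. NIPBL, the HEAT-repeat protein that stimulates the ATPase of cohesin, had 413, 394 and 376 CPM in FKA libraries, against 319, 341 and 374 CPM in control libraries. The lowest FKA library and the highest control library lay side by side. Its log2 fold change was 0.19, with a 95% interval from -0.02 to 0.41 (edgeR adjusted p = 0.109). MAU2, the stabilizing partner of NIPBL, had 148, 137 and 135 CPM in FKA libraries, against 128, 119 and 130 CPM in control libraries. Its groups were separated by a narrow gap, and its log2 fold change was 0.16, with a 95% interval from -0.03 to 0.35 (edgeR adjusted p = 0.129). Both passed under library totals alone, NIPBL at 0.35 (edgeR adjusted p = 0.0121) and MAU2 at 0.32 (edgeR adjusted p = 0.00773). That scaling raised the median of all tested genes by 0.16 on the log2 scale.

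WAPL, which releases cohesin from chromatin, stayed closest to its control level. It had 238, 215 and 213 CPM in FKA libraries, against 229, 227 and 237 CPM in control libraries. The groups overlapped, and the log2 fold change was -0.06, with a 95% interval from -0.25 to 0.14 (edgeR adjusted p = 0.591). With library totals as the only scaling it was 0.10 (edgeR adjusted p = 0.326).

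Both PDS5 genes, whose products bind the ring at RAD21 and take part in release and in the maintenance of cohesion, fell. PDS5A had 221, 229 and 232 CPM in FKA libraries, against 314, 386 and 400 CPM in control libraries. Its FKA libraries were close together and all below the controls, with a log2 fold change of -0.69 (SE 0.109, edgeR adjusted p = 0.000665). PDS5B had 129, 132 and 132 CPM in FKA libraries, against 140, 180 and 194 CPM in control libraries. Control replicate 1 lay near the FKA libraries, and the log2 fold change was -0.39 (SE 0.120, edgeR adjusted p = 0.02). The call of PDS5B was lost under library totals alone (-0.23, edgeR adjusted p = 0.144), and without FKA replicate 1 (edgeR adjusted p = 0.0597), control replicate 2 (0.0532, same test) or control replicate 3 (0.0778, same test).

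**Figure D2:**
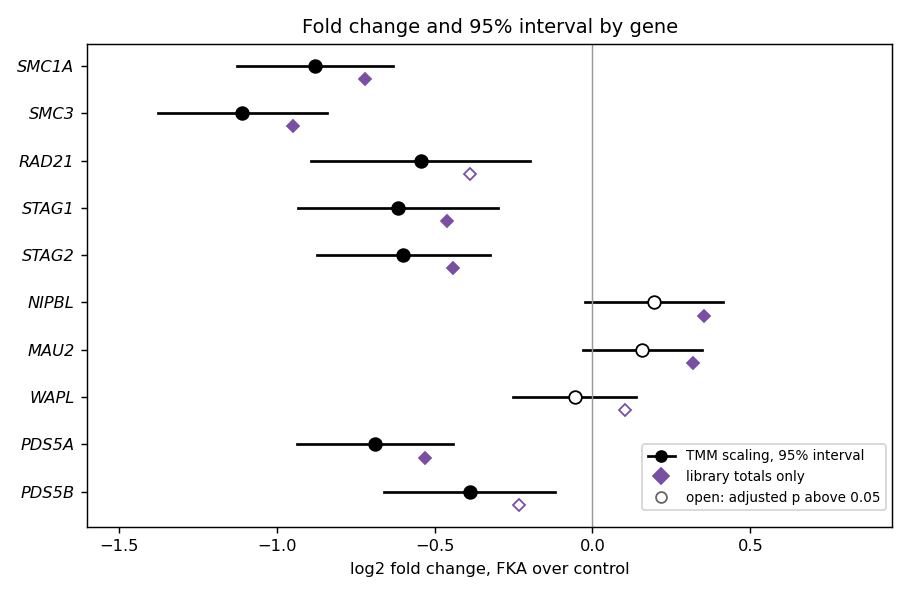
Log2 fold change of FKA over control for each gene with TMM scaling (circles, with 95% interval) and with library totals only (diamonds), open where the edgeR adjusted p is above 0.05. The 7 ring and PDS5 genes lie left of 0 under both scalings, and RAD21 and PDS5B turn open while NIPBL and MAU2 turn filled with library totals.

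FKA and control libraries were fully separated in 9 of the 10 genes, WAPL being the exception, and in 67.3% of all tested genes. Control replicate 1 was the lowest control in 8 of the 10 genes, and in 39.4% of all tested genes. In each of the 7 genes that fell, the control libraries varied more than the FKA libraries. The coefficient of variation of PDS5B was 1.46% in FKA libraries and 16.2% in control libraries, and that of SMC1A was 3.17% in FKA libraries and 13.4% in control libraries. For WAPL it was 6.24% in FKA libraries and 2.32% in control libraries, and for MAU2 it was 5.02% in FKA libraries and 4.74% in control libraries. Without FKA replicates 2 and 3, the libraries with the highest mesenchymal sums, the 1 remaining FKA library is assumed to vary like the controls. SMC1A (-0.87), SMC3 (-1.07) and PDS5A (-0.74) were then still called, while RAD21 (-0.42), STAG1 (-0.58), STAG2 (-0.52) and PDS5B (-0.42) were not. The part of the mesenchymal reads in these results was not tested.

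Levels of different genes were compared as FPKM, which divides counts by transcript length and library total. RAD21 was the most abundant of the 10 genes, at 104 ± 11.1 FPKM in FKA libraries and 136 ± 28.9 FPKM in control libraries (mean ± SD, n = 3 each). STAG1 was the least abundant, at 7.61 ± 0.494 FPKM in FKA libraries and 10.5 ± 2.21 FPKM in control libraries. Both stood apart from their neighbours in the order of FPKM levels in each group. In FKA libraries the next 6 genes in descending order of mean FPKM were PDS5A (31.5), NIPBL (31.2), STAG2 (29.8), WAPL (29.2), SMC3 (27.0) and MAU2 (25.5), and each overlapped the one after it. PDS5B (17.2 FPKM) and SMC1A (14.9 FPKM) followed, apart from each other and from their neighbours. In control libraries SMC3 (52.2 FPKM), PDS5A (45.6 FPKM) and STAG2 (40.4 FPKM) formed an overlapping second tier. WAPL (27.2 FPKM), SMC1A (24.6 FPKM) and NIPBL (24.4 FPKM) came next, overlapping in turn, before MAU2 (20.5 FPKM) and PDS5B (20.2 FPKM). SMC3 thus ranked 6 of 10 in FKA libraries and 2 of 10 in control libraries, and NIPBL ranked 3 in FKA libraries and 7 in control libraries. On the FPKM scale, which carries no TMM factor, the groups of RAD21, STAG1 and PDS5B overlapped, as did those of WAPL. The share of all tested genes that overlapped on this scale was not computed.

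Ratios of FPKM within a library do not depend on its scaling. 4 were tested with an exact two-sided permutation test, for which 3 against 3 libraries cannot give a p below 0.1. STAG1 over STAG2 was 0.249, 0.274 and 0.245 in FKA libraries, against 0.234, 0.295 and 0.247 in control libraries. The ranges overlapped, and the log2 ratio differed by -0.01 (exact permutation p = 0.9, 0.9 adjusted over the 4 ratios). PDS5A over PDS5B was 1.81, 1.83 and 1.85 in FKA libraries, against 2.36, 2.26 and 2.17 in control libraries. SMC1A over SMC3 was 0.539, 0.532 and 0.588 in FKA libraries, against 0.480, 0.474 and 0.462 in control libraries. NIPBL over WAPL was 1.04, 1.10 and 1.06 in FKA libraries, against 0.839, 0.904 and 0.949 in control libraries. In these last 3 ratios the groups did not overlap, with log2 differences of -0.31, 0.23 and 0.25. Each reached the smallest p the design allows (exact permutation p = 0.1, 0.133 adjusted over the 4 ratios).

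**Figure D3:**
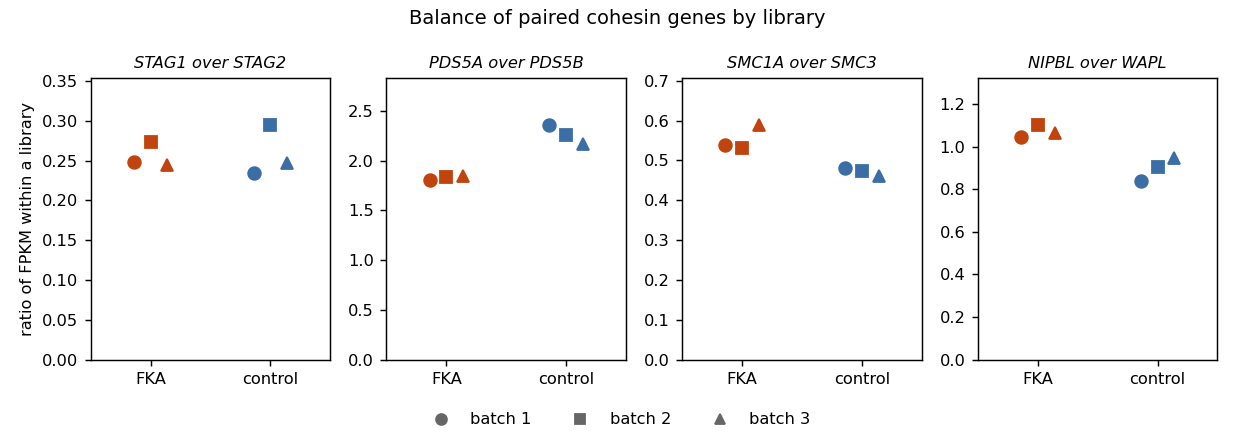
Ratio of the FPKM of 2 genes within each library, FKA libraries in orange on the left and control libraries in blue on the right, with marker shapes for batches. STAG1 over STAG2 overlaps between groups, while PDS5A over PDS5B lies between 1.81 and 1.85 in FKA libraries and between 2.17 and 2.36 in control libraries.

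Promoter windows of the genes were read for short motifs, whose link to the changes was not tested. RefSeq windows (GRCh38.p14, 250 bases before to 50 after a start site) were matched by symbol, with RAD21 left out of the search. This gave 12 windows for the other 9 of the 10 genes. SMC1A had 2 windows and STAG2 had 3. They were searched on both strands for 4 E2F motifs (TTCCCGC and also TTGGCGC and also TTCGCGC and also TTGCCGC), the cell cycle homology motif CHR (TTTGAA and also TTCGAA), the box CCAAT and a YY1 core (AAGATGG), and the letters of any match stand in capitals. The windows belong to SMC1A at chrX:53422605-53422904 (minus strand), SMC3 at chr10:110567445-110567744 (plus strand), PDS5A at chr4:39977862-39978161 (minus strand) and NIPBL at chr5:36876519-36876818 (plus strand). The capitals mark E2F letters in SMC1A and NIPBL, CHR letters in SMC3, and in PDS5A 4 E2F matches, a pair of which overlap each other and a CCAAT match.
SMC1A: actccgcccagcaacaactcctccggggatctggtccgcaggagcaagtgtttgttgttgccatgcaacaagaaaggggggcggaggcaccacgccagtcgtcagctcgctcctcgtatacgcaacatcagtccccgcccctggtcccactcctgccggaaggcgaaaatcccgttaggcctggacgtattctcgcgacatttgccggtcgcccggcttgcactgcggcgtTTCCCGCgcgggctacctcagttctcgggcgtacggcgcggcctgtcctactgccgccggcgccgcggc
SMC3: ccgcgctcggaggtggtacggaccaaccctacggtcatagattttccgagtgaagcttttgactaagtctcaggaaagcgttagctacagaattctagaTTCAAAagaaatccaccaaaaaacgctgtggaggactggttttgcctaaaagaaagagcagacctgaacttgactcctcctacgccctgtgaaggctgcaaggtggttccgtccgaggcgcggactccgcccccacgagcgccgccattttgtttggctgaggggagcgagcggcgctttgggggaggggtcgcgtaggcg
PDS5A: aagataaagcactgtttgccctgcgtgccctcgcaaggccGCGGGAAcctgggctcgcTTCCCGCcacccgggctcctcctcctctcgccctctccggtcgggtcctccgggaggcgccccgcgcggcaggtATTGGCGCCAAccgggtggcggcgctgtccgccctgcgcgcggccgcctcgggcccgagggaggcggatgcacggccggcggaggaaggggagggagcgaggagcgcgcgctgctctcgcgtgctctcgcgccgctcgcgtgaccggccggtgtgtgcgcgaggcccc
NIPBL: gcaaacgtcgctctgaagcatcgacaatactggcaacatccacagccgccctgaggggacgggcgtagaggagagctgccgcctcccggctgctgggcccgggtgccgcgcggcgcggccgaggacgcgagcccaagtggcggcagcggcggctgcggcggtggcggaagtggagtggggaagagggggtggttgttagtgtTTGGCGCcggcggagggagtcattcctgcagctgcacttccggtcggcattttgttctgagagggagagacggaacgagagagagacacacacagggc
E2F letters occurred in 6 of the 12 windows, against 13% of 35116 RefSeq windows of the same length, not matched for base composition. They were found for SMC1A, STAG1, STAG2, PDS5A and PDS5B, which fell, and for NIPBL, which was not called, and not in the windows of SMC3, MAU2 and WAPL. The other window of SMC1A and 2 of the 3 windows of STAG2 held none. CHR letters occurred in 2 of the 12 windows (SMC3 and PDS5B), against 16.4% of all windows, and CCAAT in 6 of the 12, against 34.6%. The YY1 core occurred in 1 window (STAG2), against 5.84% of all windows. A match is a run of letters and no measured binding site.

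The NIPBL window also holds the start of NIPBL-DT, a long non-coding RNA transcribed away from NIPBL, whose RefSeq start site lies 75 bases from that of NIPBL on the other strand. NIPBL-DT, named here after its values were seen, had 47.7, 58.9 and 55.2 CPM in FKA libraries, against 20.6, 21.2 and 26.9 CPM in control libraries. It rose with a log2 fold change of 1.24 (SE 0.135, edgeR adjusted p = 9.28e-05), next to 0.19 for NIPBL. The FPKM ratio of NIPBL-DT over NIPBL was 0.289, 0.374 and 0.368 in FKA libraries, against 0.161, 0.155 and 0.180 in control libraries. The use of strand in counting is not given in the sources used here, so reads where transcripts of both strands overlap cannot be told apart. RAD21-AS1, on the strand opposite RAD21, had 6 to 9 counts in FKA libraries and 10 to 28 in control libraries, beside at least 11147 counts of RAD21 in each library.

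Most genes listed for the establishment of cohesion fell too. Of 11 listed genes 10 were tested, 8 were lower and 2 (ESCO1 and HDAC8) were not called. The median log2 fold change was -2.31, and CHTF8 was not analysed here. ESCO2, the acetyltransferase that modifies SMC3 during S phase, had 0.528, 0.750 and 0.518 CPM in FKA libraries, against 21.4, 40.5 and 49.8 CPM in control libraries (log2 fold change -5.95, edgeR adjusted p = 6.77e-06). CDCA5, or sororin, which counters WAPL on acetylated cohesin, had 1.52, 1.88 and 1.73 CPM in FKA libraries, against 36.5, 67.8 and 75.8 CPM in control libraries (log2 fold change -5.13, edgeR adjusted p = 5.24e-06). The groups of both genes lay far apart. ESCO1, the acetyltransferase that acts through interphase, averaged 38.2 ± 3.13 CPM in FKA libraries and 36.7 ± 2.52 CPM in control libraries (SD, n = 3 each; log2 fold change 0.06, edgeR adjusted p = 0.64, and -0.01 without FKA replicate 1). HDAC8, which removes the acetyl mark from SMC3, averaged 20.6 ± 1.40 CPM in FKA libraries and 16.8 ± 0.605 CPM in control libraries (SD, n = 3 each; log2 fold change 0.29, edgeR adjusted p = 0.0523), and it passed as higher under library totals alone (0.45, edgeR adjusted p = 0.0102), upper-quartile factors, the 1 CPM filter, DESeq2 and the 3 limma fits. ESCO1 and HDAC8 are named after their values were seen.

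Genes that cut or protect the ring in mitosis fell as well, 6 of 6, with a median log2 fold change of -3.23. PLK1, a kinase that phosphorylates cohesin for its removal in prophase, had 4.6, 5.97 and 3.88 CPM in FKA libraries, against 23.4, 83.8 and 83.2 CPM in control libraries (log2 fold change -3.72, edgeR adjusted p = 0.000167). SGO1, or shugoshin, which shields centromeric cohesin, had 1.46, 2.13 and 1.93 CPM in FKA libraries, against 13.3, 25.9 and 25.7 CPM in control libraries (log2 fold change -3.55, edgeR adjusted p = 2.28e-05). Control replicate 1 was low in these genes too, as in RAD21, STAG1 and PDS5B. Without control replicate 1, the log2 fold change was -0.70 for RAD21 (edgeR adjusted p = 0.00089), -0.77 for STAG1 (edgeR adjusted p = 0.000174), -0.52 for PDS5B (edgeR adjusted p = 0.000821) and -4.13 for PLK1.

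The germline kleisin REC8, which takes the place of RAD21 in meiotic cohesin, rose but remained at a low level. It had 9.5, 9.97 and 6.07 CPM in FKA libraries, against 2.41, 2.38 and 2.11 CPM in control libraries. Every FKA library lay above every control library, and the log2 fold change was 1.89 (SE 0.232, edgeR adjusted p = 0.000169). Per length REC8 averaged 3.09 FPKM in FKA libraries and 0.746 FPKM in control libraries, beside 104 FPKM in FKA libraries and 136 FPKM in control libraries for RAD21. The other germline subunits RAD21L1 (2 to 3 counts in FKA libraries, 0 to 2 in control libraries) and STAG3 (3 to 16 counts in FKA libraries, 1 to 5 in control libraries) were too low for the test, and SMC1B was not analysed here.

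Partners of cohesin at loop anchors and promoters were mostly lower. Of 6 listed genes 5 were tested, 4 were lower and ZNF143 was not called (-0.33, edgeR adjusted p = 0.0572, and 0.0496 with the batch as a block), with a median log2 fold change of -0.62, and CTCFL was not analysed here. All 5 were lower with the batch as a block, in DESeq2, with no filter on low counts and without control replicate 1, and 3 under library totals alone, in the 3 limma fits and without FKA replicates 2 and 3 together. CTCF, the zinc finger protein that halts loop extrusion, had 95.9, 95.5 and 101 CPM in FKA libraries, against 137, 152 and 169 CPM in control libraries (log2 fold change -0.65, edgeR adjusted p = 0.000464). MAZ, a zinc finger protein found with CTCF, changed by -0.78 (edgeR adjusted p = 0.000266).

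The other SMC complexes were set beside cohesin. All 8 condensin subunits, which compact mitotic chromosomes, were lower, with a median log2 fold change of -1.85, and NCAPH (-4.28, edgeR adjusted p = 5.25e-06) and NCAPG (-4.26, edgeR adjusted p = 9.18e-05) fell most. Without FKA replicates 2 and 3 together 7 of the 8 were called lower. Of 9 genes listed with the SMC5/6 complex, which acts in repair and at stalled forks, 8 were tested. 2 of them rose, 2 fell and 4 were not called, where 29.3% of all tested genes were higher and 30.5% lower. The median log2 fold change of the 8 was -0.11 (0.05 under library totals alone). EID3 (1 to 5 counts in FKA libraries, 1 to 2 in control libraries) was too low for the test. NSMCE3 (0.92, edgeR adjusted p = 0.000154) and NSMCE2 (0.41, edgeR adjusted p = 0.0161) rose, while NSMCE4A (-1.11, edgeR adjusted p = 5.24e-05) and SLF1 (-1.05, edgeR adjusted p = 0.000182) fell. NSMCE2 lost its call without control replicate 2 (edgeR adjusted p = 0.0525) and without FKA replicates 2 and 3 together (edgeR adjusted p = 0.166). Differences between the lists were not tested.

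**Figure D4:**
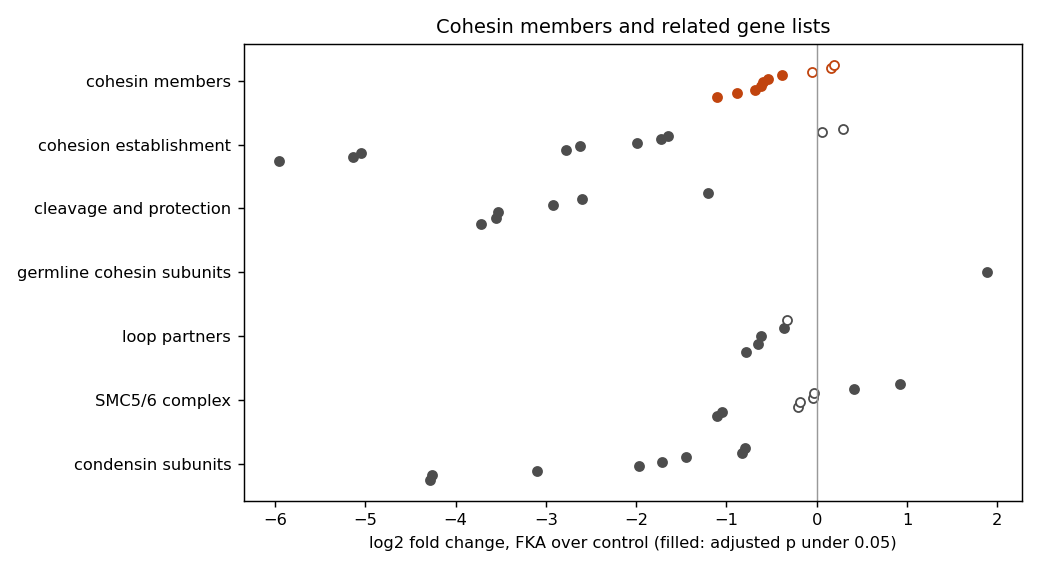
Log2 fold change of FKA over control for each tested gene of cohesin (orange) and of 6 related lists (grey), filled where the edgeR adjusted p is under 0.05. The 10 cohesin genes span -1.11 to 0.19, whereas establishment factors reach -5.95 and REC8 stands at 1.89.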

How the data were processed

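RNA-seq of 6 MV4;11 libraries (3 FKA, 3 control) was grouped by the treatment labels. The authors deposited raw counts for each gene and, as a separate table, FPKM, which equal those counts divided by 1 length per gene and by the column total. Neither the aligner and counter nor the annotation, library kit and strandedness is given in the sources used here. Per the submitters' processing notes, GRCm38 and mm10 (mouse builds) are listed, although the gene symbols are human (20900 of 21857 matched RefSeq symbols), so only RefSeq coordinates are printed.

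Counts were filtered with filterByExpr, normalized with TMM factors and compared by the quasi-likelihood test of edgeR 4.0.16 (R 4.3.3), FKA against control without the batch, with Benjamini-Hochberg adjustment over 13531 genes and a threshold of 0.05. The SE is the log2 fold change divided by the square root of F. The fit was tested on simulated data in which few genes changed, which does not check the scaling of these libraries. The biological coefficient of variation was 15.4%. The batch label equals the replicate number and so pairs the libraries, and deviations from group means correlated at 0.05, 0.34 and -0.08 in batches 1 to 3. Alternatives were the batch as a block, RLE, upper-quartile and unscaled totals, other filters, a gene length offset, DESeq2 1.42.0, limma 3.58.1 on log2(FPKM + 1) and log2(FPKM + 0.1), and leaving out libraries.

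The 10 genes and all lists were chosen with earlier results of these data known. In each related list, the 2 largest called rises and falls, called genes against the majority and untested genes were named.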

Additional observations from a re-analysis of the deposited data

How the results depend on the processing

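SMC1A, SMC3 and PDS5A were lower and past the threshold in all 18 alternatives, with log2 fold changes from -0.96 to -0.68, -1.20 to -0.91 and -0.80 to -0.51. The number of the 10 genes called lower was 7 in the reported fit, 4 in limma on log2(FPKM + 1), 3 without FKA replicates 2 and 3 together, and 5 to 7 when 1 library was left out. The number called higher was 0 in the reported fit. It was 2 (NIPBL and MAU2) with upper-quartile factors, with library totals and in the 3 limma fits on FPKM, which carry no TMM factor. Calls over all 13531 tested genes moved too. In the reported fit 3959 were higher and 4131 lower, and with upper-quartile factors 4440 were higher and 3763 lower. In limma on log2(FPKM + 1), 4968 were higher and 3190 lower. Besides the losses given above, RAD21 and PDS5B missed the threshold in all 3 limma fits, and STAG1 in limma on log2(FPKM + 1) (limma adjusted p = 0.0526). WAPL changed sign to 0.012 with upper-quartile factors, 0.10 with library totals and in the 3 limma fits, and 0.033 without FKA replicates 2 and 3. When 1 library was left out, ESCO1 ranged from -0.010 (without FKA replicate 1) to 0.106. The log2 difference of STAG1 over STAG2 was 0.021 with FPKM + 1 and, when 1 library was left out, ranged from -0.077 to 0.088. It was above 0 without FKA replicate 1, FKA replicate 3 or control replicate 2. The cause of these changes was not tested.

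With the replicate number as a block, 4066 of all tested genes were called higher and 4223 lower, and no call among the 10 genes changed (0 higher, 7 lower). For the ratios the paired sign-flip test cannot give a p below 0.25. Of all tested genes, 3959 were called higher (48.9% of calls) and 4131 lower in the reported fit. With library totals 4993 were higher (60.3% of calls) and 3282 lower, and the median of all genes moved by 0.16. Without FKA replicates 2 and 3 the counts were 2020 higher and 2599 lower. When 1 library was left out they ranged from 3365 to 3981 higher and from 3711 to 4212 lower. With 3 libraries a group, the smallest differences among the 10 genes (NIPBL, MAU2 and WAPL) are bounded by their 95% intervals and not shown to be absent.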
